A study of Mus musculus with 10 samples.

Results

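The genes described here were 9 of the insulin, AMPK and mTOR signaling pathway in mouse liver: Insr, Irs1, Pik3r1, Akt1, Akt2, Prkaa1, Prkaa2, Mtor and Rictor. They were taken by name, with earlier results of these data known, and all 9 were found among the 10913 genes of the deposited table. Liver biopsies came from wild-type C57BL/6 mice that had eaten a western diet for 12 weeks, and every biopsy was taken before any treatment. Afterwards 3 of these mice were given vehicle and 7 were given obeticholic acid (OCA), a bile acid analog that activates the receptor FXR. The 7 OCA mice were later divided by liver histology after treatment into 4 non-responders and 3 responders, so the group names refer to a result that lay in the future when the tissue was taken. The vehicle mice therefore had the same diet and no drug difference from the OCA mice at this time, and they were not a healthy control. The sources used here gave neither age nor sex for single mice, and the groups are small. Each biopsy came from 1 mouse, and p-values measure the spread between these mice.

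Insulin binds its receptor, Insr, which phosphorylates adaptors such as Irs1. The phosphorylated adaptor recruits PI3 kinase through its regulatory subunit, the product of Pik3r1, and the lipid that PI3 kinase makes brings the kinases AKT1 and AKT2 to the membrane, where mTOR complex 2, which needs Rictor, completes their activation. In liver this route is known for turning off glucose output and turning on lipid synthesis, in part through mTOR complex 1. AMPK, whose catalytic subunits come from Prkaa1 and Prkaa2, is activated when cellular energy is low and opposes mTOR complex 1 and lipid synthesis. Most of this control is by phosphorylation, which transcript levels do not show.

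Pik3r1 is the gene on which the comparisons below turn, and it is known to start at more than 1 promoter, with the upstream start giving the full-length p85 alpha subunit and internal starts giving shorter subunits. It lies on the minus strand of chromosome 13 in GRCm38 (chr13:101680563-101768217). GENCODE held 2 Pik3r1 transcripts with a RefSeq name, of 7.11 kb in 16 exons and 2.92 kb in 10 exons, whose starts lay 75.6 kb apart. The 250 bases before each start are shown to let the pair of promoters be compared, 5′ to 3′ on the minus strand from RefSeq's GRCm38.p6 annotation, with every CG pair in capitals. The upstream stretch is chr13:101768218-101768467 and the internal one is chr13:101692631-101692880.
Pik3r1 upstream start: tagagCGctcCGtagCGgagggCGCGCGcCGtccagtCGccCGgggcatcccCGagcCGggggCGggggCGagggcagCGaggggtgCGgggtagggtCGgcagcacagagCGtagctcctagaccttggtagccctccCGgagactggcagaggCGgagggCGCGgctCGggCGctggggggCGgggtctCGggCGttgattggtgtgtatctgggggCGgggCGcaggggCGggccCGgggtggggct
Pik3r1 internal start: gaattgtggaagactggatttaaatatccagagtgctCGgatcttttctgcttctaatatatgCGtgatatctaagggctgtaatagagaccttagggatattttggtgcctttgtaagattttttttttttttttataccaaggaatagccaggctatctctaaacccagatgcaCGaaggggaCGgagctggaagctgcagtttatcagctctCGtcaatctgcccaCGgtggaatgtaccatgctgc
The upstream stretch held 30 CG pairs and 76.4% G or C, and the internal one held 6 CG pairs and 42.4% G or C. Over 32851 stretches of the same length in the annotation table the median was 6 CG pairs, with 1 at percentile 10 and 25 at percentile 90. Counts divided by FPKM (fragments scaled to transcript length and to library size) gave Pik3r1 an effective length of 7.15 kb ± 0.11 (SD, n = 10), which lies nearer to the 7.11 kb transcript. This estimate takes the sum of the listed genes as the library total. After division by the median gene of each biopsy, the highest value of Pik3r1 over the biopsies was 1.035 times the lowest. The median over genes with a mean FPKM of at least 1 was 1.011 times.

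Promoter windows were found for 8 of the 9 genes, 13 windows in all, and none was found for Insr. Each window of 250 bases before to 50 after a start was searched on both strands for the FOXO motif GTAAACA, the insulin response motif CAAAACA, the E-box CACGTG and the sterol element TCACCCCAC. These stand in 3.65%, 6.28%, 7.15% and 0.551% of all 32851 windows. Only the Irs1 window and 1 of the Akt1 windows held a match, and neither Pik3r1 window did. The Akt1 match was a FOXO motif that began 161 bases before the start. Irs1, on the minus strand of chromosome 1, held 2 insulin response motifs and 1 E-box, which are the capitals in the 250 bases at chr1:82291440-82291689 printed here because no other window of these genes held more than 1 match.
Irs1 start: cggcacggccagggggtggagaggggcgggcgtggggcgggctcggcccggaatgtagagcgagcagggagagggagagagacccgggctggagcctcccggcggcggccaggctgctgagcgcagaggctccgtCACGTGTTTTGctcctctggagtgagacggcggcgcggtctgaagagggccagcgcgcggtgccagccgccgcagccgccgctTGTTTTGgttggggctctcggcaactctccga
The first run of capitals joins the E-box to an insulin response motif read on the other strand, with which it shares 2 bases at their border, and the second run is the other insulin response motif, also read on the other strand. A match of letters is a description of the sequence and not a binding site.

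Total counts over the listed genes were between 40432530 and 76529328 per biopsy, and the 9 genes had between 366 counts (Prkaa1 in responder 1) and 26178 counts (Insr in vehicle 3). Rn45s, the precursor of ribosomal RNA, took a share of all counts that separated the vehicle from the OCA mice, but not non-responders from responders. Its share was 5.72% ± 1.75 (SD, n = 3) in vehicle, 15.4% ± 5.52 (n = 4) in non-responder and 21.6% ± 4.79 (n = 3) in responder biopsies. It ranged from 3.71% to 6.87% in vehicle, 11.0% to 23.5% in non-responder and 16.3% to 25.7% in responder biopsies. The scaling factors of TMM, which sets the bulk of genes equal between libraries, were 1.11 to 1.14 in vehicle, 0.943 to 1.09 in non-responder and 0.825 to 0.926 in responder biopsies. FPKM carries no such correction, and with scaling by total counts alone the median of all genes was shifted by -0.37 on the log2 scale in responders against vehicle, -0.24 in OCA mice against vehicle, -0.23 in responders against non-responders and -0.16 in non-responders against vehicle. For that reason differences between groups are given in TMM-scaled CPM (counts scaled to library size), and FPKM is used for comparing genes within a biopsy. What the Rn45s share adds to any difference cannot be told apart from the groups. Hepatocyte markers (9 of 10 listed) were high in every biopsy, with summed CPM of 10980 to 24080, while no listed marker of adipocytes, skeletal muscle, neutrophils, mesothelium or lymphocytes (B, T and NK cells) was in the table, which keeps only genes above 0 in all 10 biopsies. Bulk RNA cannot tell fewer cells of a type from less RNA per cell.

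Per length, the AKT kinases were the most abundant of the 9 transcripts and the AMPK alpha 1 subunit the least abundant. Mean FPKM over the 10 biopsies was 54.3 ± 6.89 for Akt2, 53.5 ± 5.33 for Akt1, 35.0 ± 2.55 for Insr, 26.1 ± 3.71 for Mtor and 15.6 ± 2.95 for Pik3r1 (SD, n = 10). It was 10.2 ± 1.81 for Rictor, 7.57 ± 1.22 for Prkaa2, 5.09 ± 1.50 for Irs1 and 3.35 ± 0.719 for Prkaa1. Akt2 and Akt1 did not differ beyond their spread, since Akt2 was the higher in only 3 of 10 biopsies, and their order turned when biopsies were rescaled. Insr stood below Akt1, Mtor below Insr, Pik3r1 below Mtor and Rictor below Pik3r1 in 10 of 10 biopsies each. The lower neighbours were less separate, with Rictor above Prkaa2 in 9, Prkaa2 above Irs1 in 8 and Irs1 above Prkaa1 in 9 of 10 biopsies, and with ranges that overlapped in each of these pairs.

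**Figure D1:**
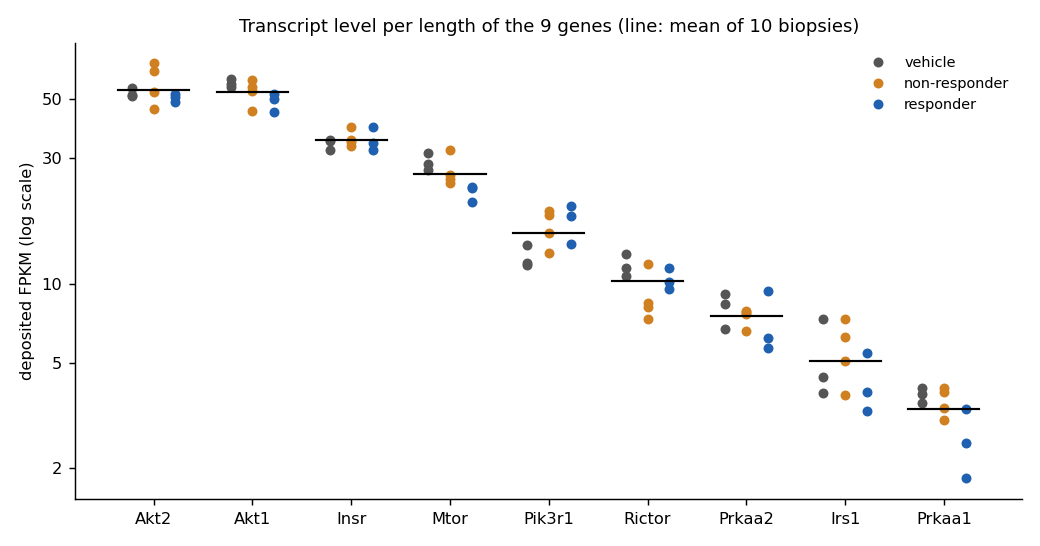
Deposited FPKM of the 9 genes on a log axis, with 1 point per biopsy colored by group and a line at the mean of 10 biopsies. Akt2 and Akt1 share the top level near 54 FPKM, and Prkaa1 is lowest at 3.35 FPKM.

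Several of these genes also varied little between mice of 1 group. Among 8577 genes with a mean FPKM of at least 1, the pooled SD of log2 CPM within groups was 0.12 for Akt2 (percentile 2.73), 0.15 for Akt1 (percentile 7.40), 0.18 for Insr (percentile 12.3), 0.19 for Pik3r1 (percentile 14.5) and 0.19 for Mtor (percentile 15.1). The median of all 8577 genes was 0.31. This ranking was not matched on count level, and what the level adds to it was not tested. Irs1 was the exception with 0.42 at percentile 73.7, and Prkaa1, Prkaa2 and Rictor lay between, at 0.26, 0.25 and 0.25.

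**Figure D2:**
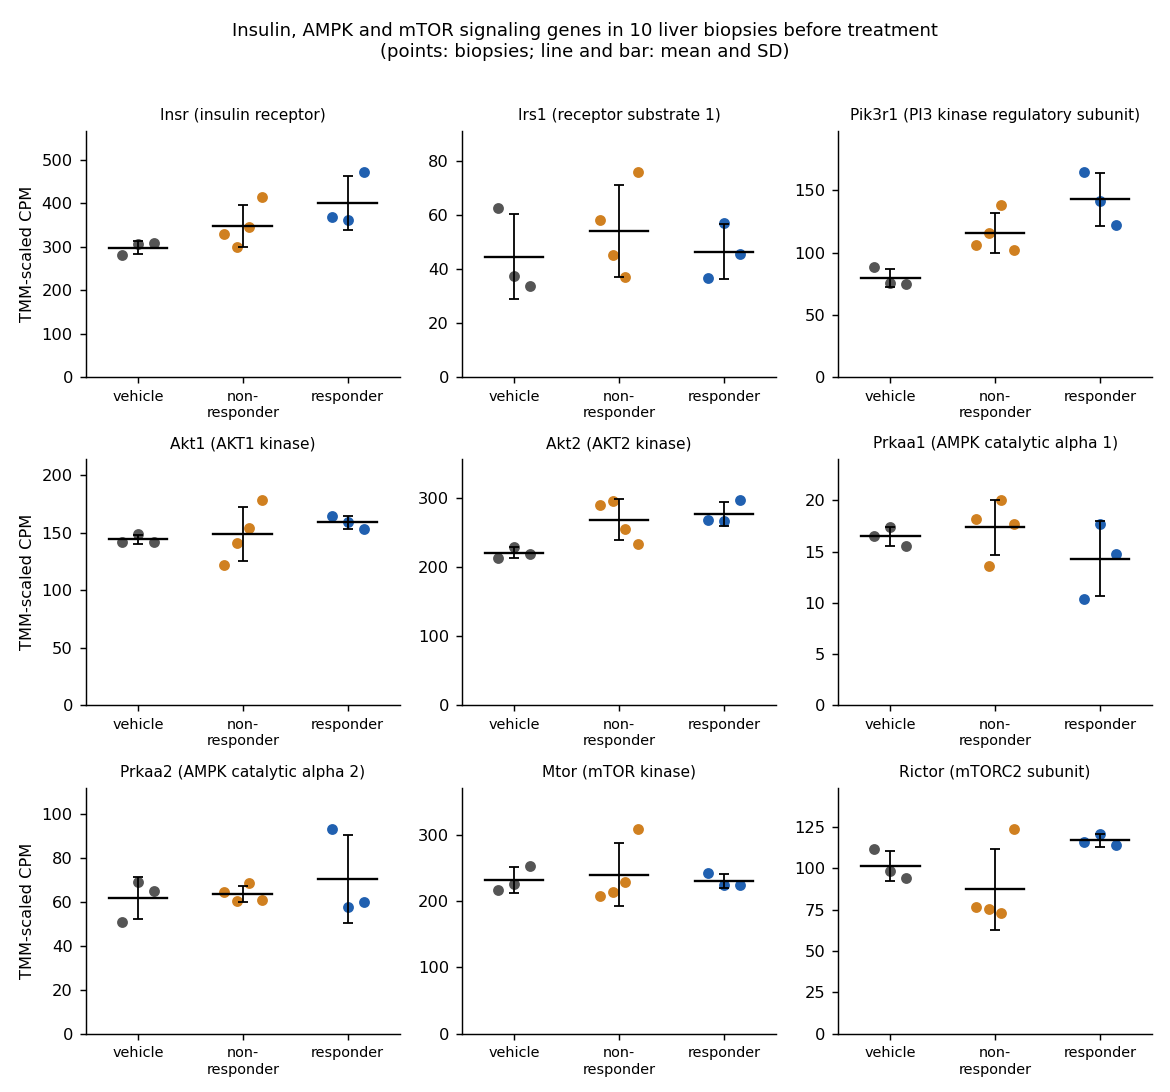
TMM-scaled CPM of each gene by group, with 1 point per biopsy, a line at the group mean and a bar of 1 SD, each axis starting at 0. Pik3r1 is 74.9 to 88.2 in the vehicle biopsies and 101.8 to 164.6 in the 7 OCA biopsies, while Irs1 overlaps fully between groups.

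Insr, the receptor itself (chr8:3122061-3279617, minus strand), had TMM-scaled CPM of 280.1, 305.1 and 307.5 in vehicle 1 to 3. Non-responder 1 to 4 had 329.9, 299.4, 344.0 and 413.8, and responder 1 to 3 had 368.2, 361.8 and 471.5. All responders were above all vehicle biopsies, while non-responder 2 fell within the vehicle range. Its log2 fold change in responders against vehicle was 0.42 ± 0.17 (SE), with an adjusted p of 0.163 in edgeR's quasi-likelihood test, and in responders against non-responders it was 0.21 ± 0.17 (adjusted p = 0.605), so neither passed. In FPKM the same difference was not seen, as vehicle spanned 32.2 to 35.2 and responders 32.2 to 39.4.

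Irs1, an adaptor that carries the signal from the receptor to PI3 kinase (chr1:82233101-82291416), was the most variable of the 9 within groups. Its CPM was 62.6, 37.5 and 33.5 in vehicle, 57.9, 45.0, 37.0 and 75.8 in non-responder and 36.7, 56.8 and 45.6 in responder biopsies. The groups overlapped fully, and the log2 fold change of responders against non-responders was -0.22 ± 0.26 (adjusted p = 0.738, edgeR). An exon of Irs1 overlaps Gm9747 on the opposite strand, and since the sources used here do not say whether counting used strand, reads of this overlap cannot be assigned.

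Pik3r1, which encodes regulatory subunits of PI3 kinase, was the 1 gene of the 9 that passed the test in any comparison. Its CPM was 88.2, 75.7 and 74.9 in vehicle 1 to 3, 105.9, 115.9, 138.0 and 101.8 in non-responder 1 to 4, and 164.6, 141.1 and 122.3 in responder 1 to 3. Every OCA biopsy was above every vehicle biopsy, and the non-responder and responder ranges overlapped between 122.3 and 138.0. Group means were 79.6 ± 7.43 (SD, n = 3) in vehicle, 115.4 ± 16.2 (n = 4) in non-responders and 142.7 ± 21.2 (n = 3) in responders. Against vehicle, Pik3r1 was 1.78-fold higher in responders (log2 fold change 0.83 ± 0.17, adjusted p = 0.0409, edgeR), and this passed the threshold of 0.05. The log2 fold change was 0.68 ± 0.17 for all 7 OCA mice (adjusted p = 0.0721) and 0.54 ± 0.16 for non-responders (adjusted p = 0.196), and neither passed. Responders against non-responders gave 0.31 ± 0.16 (adjusted p = 0.443).

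The Pik3r1 call in responders against vehicle rested on few mice and on the scaling. Leaving out single biopsies kept the log2 fold change between 0.72 and 0.93, but the adjusted p passed 0.05 only without vehicle 1 (0.0288) and was 0.177 without vehicle 2, 0.138 without vehicle 3, 0.0751 without responder 1, 0.0902 without responder 2 and 0.0816 without responder 3. With total-count scaling the adjusted p was 0.116 at a log2 fold change of 0.47, which lies 0.85 above the median of all genes, and it was 0.0532 with Rn45s left out of the totals. With the log2 Rn45s share as a covariate the log2 fold change was 0.71 and the adjusted p 0.998, and no gene in the data passed in that fit. Of 9 other settings that left no biopsy out, 5 kept the call, which were DESeq2, limma, RLE scaling, no filter and 1 fit of all biopsies. In FPKM, responders (19.7, 18.1 and 14.2) were still all above vehicle (14.1, 12.0 and 11.8), but by a narrow margin between responder 3 and vehicle 1, and non-responder 4 at 13.1 fell within the vehicle range. Of cell type markers, 1 of 11 for stellate cells and fibroblasts (Reln) and 1 of 3 for cholangiocytes (Spp1) passed in the same comparison. The counts were 0 of 9 for hepatocytes, 0 of 6 for Kupffer cells and macrophages and 0 of 9 for sinusoidal endothelial cells. Of all genes 4.52% passed, and these small counts are to be read next to that share. The summed CPM of 11 stellate cell and fibroblast markers was 1172 to 1586 in vehicle and 1020 to 1228 in responders. That of the 3 cholangiocyte markers in the table, of 6 listed, was 38.1 to 46.3 in vehicle and 21.3 to 27.8 in responders. Hepatocyte sums were 14300 to 19510 in vehicle and 18510 to 20600 in responders. Of these sums, only those of cholangiocytes did not overlap. Their part in the Pik3r1 result was not tested.

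Akt1 (chr12:112653821-112674884) and Akt2 (chr7:27591552-27640826) encode closely related kinases, of which AKT2 is known as the main carrier of the metabolic action of insulin. Akt2 had CPM of 213.9, 230.0 and 219.6 in vehicle, 290.8, 296.7, 255.9 and 233.9 in non-responder and 268.2, 266.9 and 297.3 in responder biopsies. All 7 OCA biopsies were above all 3 vehicle biopsies, with non-responder 4 only just above vehicle 2. For OCA mice against vehicle the log2 fold change was 0.30 ± 0.13, with an unadjusted p of 0.0374 and an adjusted p of 0.227 in edgeR, and so it did not pass. Akt1 had 142.5, 149.1 and 141.8 in vehicle, 122.1, 141.5, 154.6 and 178.4 in non-responder and 164.5, 159.4 and 153.6 in responder biopsies. Responders were narrowly above vehicle in CPM, with a log2 fold change of 0.13 ± 0.14 (adjusted p = 0.592, edgeR). The direction turned in FPKM, where responders had 44.7 to 52.4 and vehicle 55.9 to 59.9, and it turned with total-count scaling as well (-0.23, against a median of all genes of -0.37).

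The ratio of Akt1 to Akt2 FPKM within a biopsy does not depend on library scaling. It was 1.11, 1.08 and 1.08 in vehicle, 0.704, 0.817, 1.01 and 1.29 in non-responder and 1.03, 1.00 and 0.873 in responder biopsies. The vehicle mice were close to each other, and the responders all lay below them, but the non-responders spanned both sides. The log2 ratio of responders was lower than that of vehicle by a mean of -0.18, with a two-sided exact permutation p of 0.1, the smallest that 3 against 3 allows, and 0.8 after adjustment over 8 ratio comparisons. For responders against non-responders the difference was 0.052 (exact permutation p = 0.914). None of the 8 comparisons passed.

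**Figure D3:**
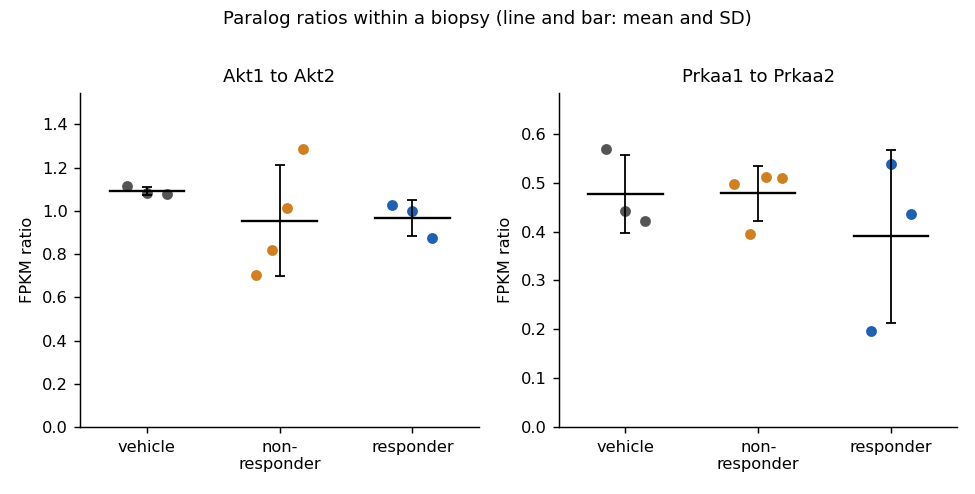
FPKM ratio of Akt1 to Akt2 and of Prkaa1 to Prkaa2 in each biopsy by group, with the group mean and 1 SD, both axes starting at 0. The Akt1 to Akt2 ratio is 1.08 to 1.11 in vehicle and 0.704 to 1.29 in non-responders, and the Prkaa1 to Prkaa2 ratio of responder 1 is lowest at 0.196.

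Prkaa1 (chr15:5143861-5181899) and Prkaa2 (chr4:105029874-105109890) encode the alternative catalytic subunits of AMPK, and the alpha 2 transcript was the more abundant in every biopsy. Prkaa1 CPM was 16.5, 17.4 and 15.6 in vehicle, 18.2, 13.6, 20.0 and 17.7 in non-responder and 10.4, 17.7 and 14.8 in responder biopsies. The groups overlapped, and responders against non-responders gave a log2 fold change of -0.28 ± 0.24 (adjusted p = 0.636, edgeR). Prkaa2 CPM was 51.2, 69.4 and 65.2 in vehicle, 64.4, 60.7, 68.8 and 61.1 in non-responder and 93.6, 57.8 and 59.9 in responder biopsies. Responder 1 was the highest of all biopsies in Prkaa2 and the lowest in Prkaa1, and the other responders lay within the range of the remaining mice. The log2 fold change of Prkaa2 in responders against non-responders was 0.14 ± 0.19 (adjusted p = 0.766), and it was -0.11 without responder 1. The Prkaa1 to Prkaa2 FPKM ratio was 0.421 to 0.569 in vehicle and 0.395 to 0.512 in non-responders, and in responders it was 0.196, 0.539 and 0.436.

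Mtor (chr4:148448611-148557683), the kinase shared by both mTOR complexes, had CPM of 216.1, 226.3 and 253.5 in vehicle, 207.5, 213.8, 229.2 and 309.5 in non-responder and 243.0, 224.4 and 224.5 in responder biopsies. All groups overlapped, and the log2 fold changes of the 4 comparisons were between -0.056 and 0.055 with adjusted p of 0.911 to 0.956 (edgeR). In FPKM the 3 responders, at 20.5 to 23.2, were below all non-responders (24.1 to 32.1) and all vehicle biopsies (27.1 to 31.3), a separation that TMM scaling removed. In responders against vehicle 40.9% of all genes did not overlap in FPKM, and the share for responders against non-responders was not counted. With total-count scaling Mtor in responders against vehicle was at -0.38 (adjusted p = 0.132), next to a median of all genes of -0.37.

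Rictor (chr15:6708379-6800401), the scaffold that defines mTOR complex 2, had the largest log2 fold change of the 9 between responders and non-responders. Its CPM was 76.4, 75.6, 73.2 and 124.1 in non-responder 1 to 4, 115.7, 121.1 and 113.9 in responder and 111.9, 98.5 and 94.4 in vehicle biopsies. Non-responder 1 to 3 thus lay close together and below all vehicle mice, the responders lay above all vehicle mice, and non-responder 4 was above every responder. The log2 fold change of responders against non-responders was 0.42 ± 0.20, with an unadjusted p of 0.0616 and an adjusted p of 0.389 (edgeR), and it did not pass. Without non-responder 4 it was 0.64 (adjusted p = 0.0748). In responders against vehicle it was 0.19 ± 0.15 (adjusted p = 0.455) and in non-responders against vehicle -0.21 ± 0.21 (adjusted p = 0.679).

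**Figure D4:**
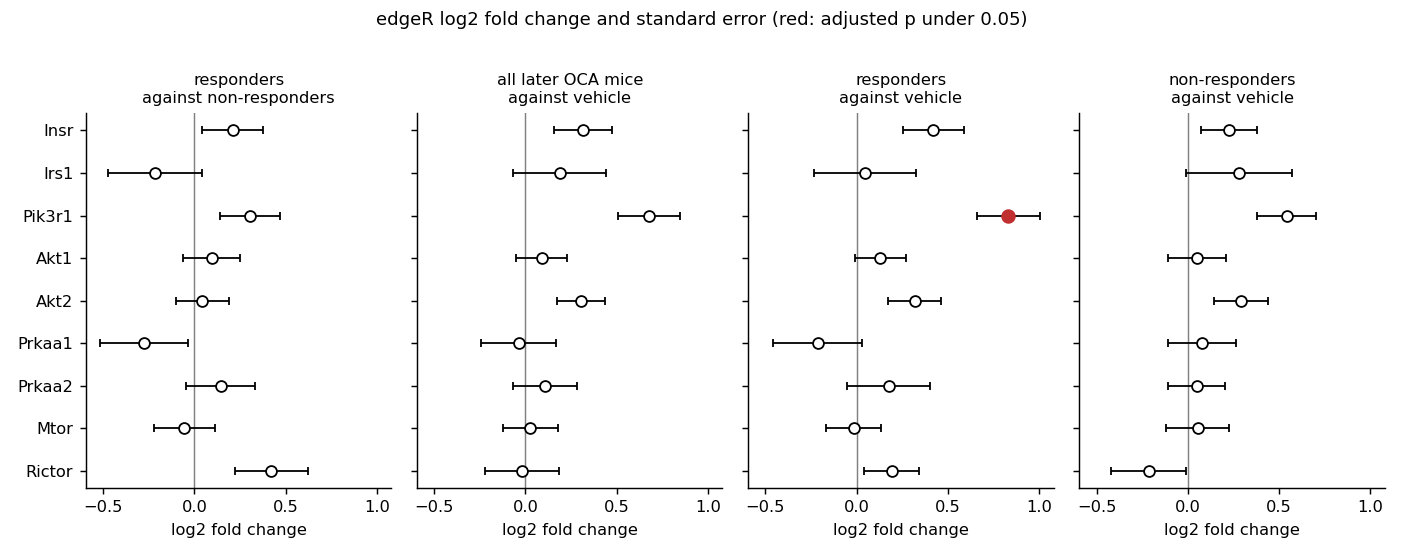
Log2 fold change of the 9 genes in 4 comparisons from edgeR, with bars of 1 standard error and a red point for an adjusted p under 0.05. Pik3r1 in responders against vehicle (0.83) is the only red point, and Rictor has the highest value in responders against non-responders (0.42).

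The first question of the design was whether the later response to OCA was preceded by a different level of these genes. Between responders and non-responders 0 of the 9 genes passed an adjusted p of 0.05 in edgeR, where 0.0% of 10826 genes passed, and 0 of 9 passed in DESeq2 (2.46% of all genes) or limma (0.0%). At an unadjusted p under 0.05 the count was 0 of 9 next to 13.9% of all genes, and 0 of 9 had groups that did not overlap in CPM next to 14.3% of all genes. The 9 log2 fold changes lay between -0.28 and 0.42, with 6 above 0 and a median of 0.096, and the median of all genes was -0.0086. Standard errors were 0.14 to 0.26 on the log2 scale, so differences of the size of Rictor's could not be separated from the spread between mice. In simulated counts with 200 changed genes, this edgeR test recovered 19% of 2-fold and 82% of 4-fold changes in this comparison. Most 2-fold changes were thus missed in that simulation. Its changed genes were drawn at random from all genes tested. Several of the 9 genes varied less within groups than the median gene, and their own recovery was not tested.

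The other 3 comparisons set the OCA mice against the vehicle group at the same time before treatment, and they share the 3 vehicle biopsies, so they are not independent of each other. For all 7 OCA mice against vehicle, 0 of 9 genes passed in edgeR next to 1.19% of 10844 genes, while DESeq2 and limma each called Pik3r1 (adjusted p of 0.0123 and 0.0447) next to 6.11% and 2.4% of all genes. Unadjusted p was under 0.05 for 2 of 9, Pik3r1 and Akt2, next to 19.2% of all genes, and the same 2 genes did not overlap between the groups next to 10.3%. For responders against vehicle, 1 of 9 passed next to 4.52% of 10785 genes, 2 of 9 (Pik3r1 and Insr) had an unadjusted p under 0.05 next to 26.0%, and 5 of 9 (Insr, Pik3r1, Akt1, Akt2 and Rictor, all higher in responders) did not overlap next to 32.7%. In FPKM 4 of 9 did not overlap, Pik3r1 higher and Akt1, Prkaa1 and Mtor lower in responders, next to 40.9% of all genes, of which 612 were higher and 3798 lower. For non-responders against vehicle, 0 of 9 passed in edgeR, DESeq2 or limma next to 0.0462% of 10832 genes in edgeR, 3.51% in DESeq2 and 0.147% in limma, 1 of 9 (Pik3r1) had an unadjusted p under 0.05 next to 14.6%, and 2 of 9 (Pik3r1 and Akt2) did not overlap next to 16.4%. With only 9 genes, none of these shares can be read as different from that of all genes. Median log2 fold changes of the 9 were 0.11, 0.18 and 0.080 in the order given, next to 0.0026, -0.012 and -0.0038 for all genes.

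Around the 9 genes, 154 others from 8 lists of the same pathways were in the table. None of them passed in responders against non-responders, where 0.0% of all genes passed, or in non-responders against vehicle, where 0.0462% did. In OCA mice against vehicle 1.19% of all genes passed, and the counts of these lists are to be read next to those shares. Sh2b1, an adaptor that binds the insulin receptor, was the 1 gene of these lists that passed in OCA mice against vehicle, at 80.3 ± 18.5 CPM (SD, n = 7) and 39.4 ± 0.950 CPM (n = 3), a log2 fold change of 1.03 ± 0.21 (adjusted p = 0.0356, edgeR). It rose in responders against vehicle too (1.24 ± 0.16, adjusted p = 0.0205), with responders at 81.9 to 102.8 CPM and vehicle at 38.8 to 40.5 CPM. Its adjusted p in OCA mice against vehicle lay above 0.05 without any 1 of the 3 vehicle mice (0.0902 to 0.170), non-responder 3 (0.0613), responder 2 (0.0670) or responder 3 (0.0565). Of the 24 genes of the receptor list in the table, Insr and Irs1 included, Sh2b1 was the only one to pass in either comparison.

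**Figure D5:**
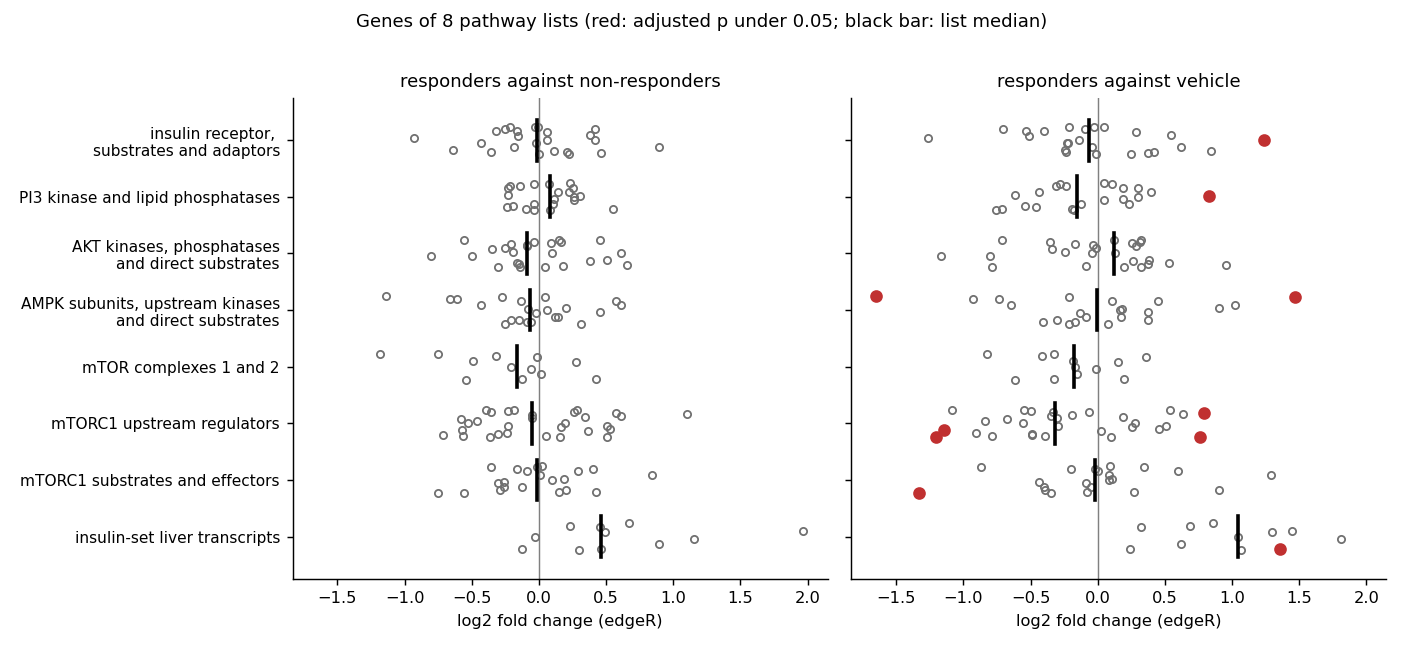
Log2 fold change from edgeR of every gene of 8 pathway lists for responders against non-responders and for responders against vehicle, with red points for an adjusted p under 0.05 and black bars at list medians. No point is red in responders against non-responders, and 10 different genes are red in responders against vehicle.

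In responders against vehicle 6 of the 163 list genes were higher and 4 were lower, Pik3r1 included, where 4.52% of all genes passed, and the small counts of single lists below are to be read next to that share. None of the 9 of these genes reported here passed when vehicle 2 was left out (adjusted p of 0.119 to 0.207), nor without vehicle 3 (0.0840 to 0.159), responder 2 (0.0598 to 0.111) or responder 3 (0.0626 to 0.0994), while 4 passed without responder 1 and all 9 without vehicle 1. Among the genes of the PI3 kinase list (22 of 22 in the table) Pik3r1 was the only one that passed, and the list median was -0.15. Pik3ap1, an adaptor of PI3 kinase in immune cells, had a log2 fold change of -0.64 ± 0.18 in OCA mice against vehicle (adjusted p = 0.0845, edgeR). None of 25 genes of the AKT list passed in any comparison. Phlpp1, a phosphatase that dephosphorylates AKT, did not overlap between responders (113.4 to 121.9 CPM) and non-responders (74.1 to 87.2 CPM), at a log2 fold change of 0.51 ± 0.13 (adjusted p = 0.213). It was named for its small p, and 14.3% of all genes did not overlap in this comparison. The AKT-regulated factors Foxo1 and Foxo3 had 0.45 ± 0.19 and 0.65 ± 0.28 in the same comparison (adjusted p of 0.334 and 0.338).

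Among the 22 AMPK genes listed there, 1 rose and 1 fell in responders against vehicle, and neither encodes a subunit of AMPK. Stradb, a pseudokinase partner of the AMPK kinase LKB1, fell from 15.2 ± 2.05 to 4.86 ± 1.41 CPM (log2 fold change -1.65 ± 0.28, adjusted p = 0.0282, edgeR). The regulatory subunit gene Prkag2 had 0.58 ± 0.18 in responders against non-responders (adjusted p = 0.240), and the AMPK list had a median of -0.0060 in responders against vehicle.

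Neither mTOR complex had a gene that passed, with 12 of 12 listed subunits and assembly factors in the table and medians of -0.17 in responders against non-responders and -0.18 in responders against vehicle. Rptor, the scaffold that defines mTOR complex 1, had 64.8 to 71.0 CPM in responders and 53.3 to 58.6 CPM in non-responders, with a log2 fold change of 0.28 ± 0.13 (adjusted p = 0.398). Between these groups 14.3% of all genes did not overlap. Upstream of mTOR complex 1, 20 of 31 genes were below 0 in responders against vehicle, with a list median of -0.33 next to -0.012 for all genes. Against vehicle, 21 of 31 were below 0 in OCA mice and 23 of 31 in non-responders. In responders against vehicle 4 passed, in both directions. Depdc5, of the GATOR1 complex that restrains mTOR complex 1, rose (0.76 ± 0.17, adjusted p = 0.0485), as did Flcn (0.79 ± 0.17, adjusted p = 0.0423), which controls the Rag GTPases. Sesn3, a sestrin that restrains the complex, fell (-1.20 ± 0.23, adjusted p = 0.0360), and so did Lamtor5 (-1.15 ± 0.25, adjusted p = 0.0455), part of the Ragulator that anchors the complex. Downstream, Rps6, the ribosomal protein that S6 kinase phosphorylates, fell from 129.7 ± 11.7 to 51.7 ± 9.86 CPM (-1.34 ± 0.19, adjusted p = 0.0213), and as a ribosomal protein gene with processed copies in the genome its count is uncertain.

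Liver transcripts that insulin is known to raise or lower were above 0 in 11 of 11 genes both in OCA mice and in responders against vehicle, with medians of 0.66 and 1.04, and in 9 of 11 in responders against non-responders (median 0.46). In non-responders against vehicle 8 of 11 were above 0. The median for OCA mice against vehicle was 1.19 without vehicle 1 and 0.42 without vehicle 3, and that for responders against non-responders was 0.71 without non-responder 3, 0.27 without non-responder 4 and 0.30 without responder 3. Only Srebf1, which insulin induces and which drives lipid synthesis, passed, at 586.9 ± 52.3 CPM in vehicle and 1509 ± 313 CPM in responders (1.35 ± 0.20, adjusted p = 0.0213, edgeR). Irs2, which insulin represses, had 314.5 ± 73.5 CPM in non-responders and 582.0 ± 144 CPM in responders without overlap (0.89 ± 0.22, adjusted p = 0.203), where Irs1 had overlapped fully. Between these groups 14.3% of all genes did not overlap. Vehicle 1, at 565.0 CPM of Irs2, lay within the responder range of 468.3 to 744.4, while vehicle 2 and 3 had 317.3 and 244.2 CPM. Ppargc1a and Igfbp1, both of which insulin represses, had 1.97 ± 0.62 and 1.15 ± 0.41 in responders against non-responders (adjusted p of 0.245 and 0.268). In both genes responder 1 lay below non-responder 3, without which Ppargc1a was at 2.79. Vehicle 1 had 415.7 CPM of Ppargc1a, above responder 1 at 161.5, while vehicle 2 and 3 had 76.4 and 95.6 CPM. Fasn, which insulin induces, had 1.07 ± 0.39 in OCA mice against vehicle (adjusted p = 0.165). In responders against vehicle the repressed Irs2, Ppargc1a and Igfbp1, at 0.62, 1.45 and 1.81, lay on the same side of 0 as the induced Fasn, at 1.04 (adjusted p of 0.262, 0.252, 0.212 and 0.184, none of which passed), while in responders against non-responders Fasn was at -0.026.

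As a description of the pattern over the 10 biopsies, each of the 9 genes was set beside the genes of 8577 with the highest Pearson r of log2 CPM. Smarca4 (r = 0.97) and Lrrc59 (0.95) were among the genes most like Pik3r1, and Rictor was most like Tpra1 (0.96), Akap8l (0.96) and Pde1b (0.95). Prkaa2 was closest to Epb41l4b (0.95), Selenbp1 (0.94) and Selenbp2 (0.94), the last a pair with near-identical sequence whose reads can be shared. Akt2 stood nearest to Drap1 (0.95), Txn1 (0.93) and Atp5j2 (0.93), and Akt1 to Dync2h1 (0.94), Runx2 (0.93) and Ccdc171 (0.93). For Insr the nearest were Cbx7 (0.93), Pxn (0.91) and Rad50 (0.91), for Irs1 Arid3b (0.91), Rassf5 (0.87) and Mgat5 (0.87), for Prkaa1 Maged2 (0.96), Tmem39b (0.93) and Ublcp1 (0.89), and for Mtor Rnf31 (0.92), Ugt1a1 (0.92) and Dab2ip (0.90). Among the 9 themselves, r was highest for Akt1 with Mtor (0.73), for Akt1 with Rictor (0.66) and for Pik3r1 with Akt2 (0.65), and lowest for Irs1 with Prkaa2 (-0.60) and for Prkaa1 with Prkaa2 (-0.56). All points share the same libraries and the Rn45s gradient, and the highest of so many values is high by selection.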

How the data were processed

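RNA-seq was measured in 10 liver biopsies, 1 per mouse, and the labels name both TruSeq Stranded mRNA and SMARTER library kits. Trimmomatic 0.38, HISAT2 2.1.0 with the mm10 genome, and StringTie were the tools of the authors. The deposited table gives each biopsy a whole read count, an FPKM value and a log2 value (FPKM with 1 added, then quantile normalized by the authors), and it lists a gene only where all biopsies were above 0. The sources used here give neither the derivation of the counts nor the strand setting. The authors' signed fold, p-value, adjusted p-value and volume columns, 1 set for each pair of groups, were not used. Groups were taken from the sample titles.

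The deposited counts were tested with edgeR 4.0.16 in R 4.3.3 (TMM scaling, filterByExpr with a minimum count of 10 and minimum total of 15, quasi-likelihood test), with Benjamini-Hochberg adjustment over all genes tested at 0.05. A fit used no biopsies beyond its 2 groups. CPM used TMM over all 10 biopsies, and log2 CPM a prior count of 2. FPKM ratios were compared by exact permutation tests. Alternatives were DESeq2 1.42.0, limma 3.58.1 on the deposited log2 values, RLE scaling, no filter, 1 fit of all biopsies, a replicate block, the log2 Rn45s share as a covariate, scaling by total counts with and without Rn45s, and leaving out each biopsy. Scripts were tested on simulated data. The 9 genes, the 8 pathway lists and the marker lists were chosen with earlier results of these data known. The rule named, from each list, the genes past the threshold in any comparison and the 3 with the smallest p for responders against non-responders and for OCA mice against vehicle, some of which are given only within the counts, and a few genes are not reported here. Positions are of GRCm38 from GENCODE, and promoters are from RefSeq on GRCm38.p6.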

Additional observations from a re-analysis of the deposited data

Results flagged for a closer look

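Within groups of 4 to 7 mice, 5 of 22 sets of values held 1 biopsy far from the others by Dixon's test, and chance gives about 1 in 20 for independent sets. These sets are not independent, since the non-responders are also among the OCA mice and the Prkaa1 to Prkaa2 ratio uses Prkaa2 again. Rictor in non-responder 4 was at 124.1 CPM where the other non-responders had 73.2 to 76.4, and Mtor in the same biopsy was at 309.5 CPM where the other OCA mice had 207.5 to 243.0. Non-responder 4 also had the highest Rn45s share of its group (23.5%), and the part of this share was not tested. Prkaa2 in responder 1 was at 93.6 CPM where the other OCA mice had 57.8 to 68.8. The Prkaa1 to Prkaa2 FPKM ratio was 0.196 in responder 1 where the other OCA mice had 0.395 to 0.539, and it was 0.395 in non-responder 2 where the other non-responders had 0.497 to 0.512.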

How the results depend on the processing

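Of 594 values of the 9 genes under alternatives, 517 kept their direction and side of the threshold and 65 took the other direction, none of them called. The Pik3r1 call in responders against vehicle was lost in 9, and Pik3r1 was called in OCA mice against vehicle in 3 (DESeq2, limma and 1 fit of all biopsies). Of the values for other named genes and lists, 1025 kept both, 64 lost and 22 gained a call, and 43 list medians moved. The cause of these changes was not tested. Both scalings by total counts were chosen after seeing the data.

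Genes called in responders against non-responders were 268 with DESeq2 (0 in edgeR) and 0 to 1 leaving out single biopsies. In OCA mice against vehicle they were 666 with DESeq2, 262 with limma, 326 in 1 fit of all biopsies and 0 with the Rn45s covariate (129 in edgeR), and 1 to 158 leaving out biopsies. For responders against vehicle they were 1555 with DESeq2, 928 in 1 fit, 1673 with total-count scaling and 0 with the covariate (488 in edgeR), and 0 to 848 leaving out biopsies. In non-responders against vehicle they were 382 with DESeq2, 16 with limma, 11 in 1 fit and 0 with the covariate (5 in edgeR), and 2 to 8 leaving out biopsies.

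Same-numbered mice of different groups did not deviate together (r of -0.073 to 0.055). With groups this small, that cannot exclude a pairing of the mice. With a replicate block, calls were 0 in OCA mice, 74 in responders and 0 in non-responders against vehicle. The block put the log2 fold change of Mtor at -0.048 in OCA mice and -0.085 in non-responders against vehicle and 0.090 in responders against non-responders, of Akt1 at -0.049 in non-responders against vehicle, of Akt2 at -0.017 in responders against non-responders, and the log2 Prkaa1 to Prkaa2 ratio of non-responders against vehicle at -0.024. The Pik3r1 adjusted p in responders against vehicle was 0.0645 with the block.

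With the Rn45s covariate, log2 fold changes in OCA mice against vehicle turned to -0.18 for Insr, -0.25 for Irs1, -0.24 for Akt1, 0.12 for Prkaa1, -0.033 for Prkaa2, -0.20 for Mtor, 0.61 for Mapkap1, 0.15 for Sesn3 and 0.18 for Eif4ebp2. In non-responders against vehicle they turned to -0.071 for Insr, -0.66 for Irs1, -0.29 for Akt1, -0.17 for Prkaa1 and -0.27 for Mtor, in responders against vehicle to -0.30 for Irs1 and 0.24 for Mtor, and in responders against non-responders to -0.012 for Insr and -0.035 for Akt1.

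Scaling by total counts gave, in OCA mice against vehicle, -0.056 for Irs1, -0.16 for Akt1, -0.14 for Prkaa2 and -0.22 for Mtor. In non-responders against vehicle it gave -0.12 for Akt1, -0.088 for Prkaa1, -0.11 for Prkaa2 and -0.11 for Mtor, in responders against non-responders -0.0084 for Insr, -0.11 for Akt1, -0.19 for Akt2 and -0.076 for Prkaa2, and in responders against vehicle -0.31 for Irs1, -0.23 for Akt1, -0.048 for Akt2, -0.19 for Prkaa2 and -0.17 for Rictor. Leaving Rn45s out of the totals turned Mtor in OCA mice against vehicle (-0.012), Akt1 (-0.015) and Akt2 (-0.066) in responders against non-responders and Irs1 in responders against vehicle (-0.055). Limma gave -0.030 for Akt2 in responders against non-responders.

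Leaving out single biopsies, values that crossed 0 spanned -0.12 to 0.38 for Irs1, -0.078 to 0.31 for Prkaa2 and -0.060 to 0.049 for Mtor in responders against vehicle. In non-responders against vehicle they spanned -0.042 to 0.13 for Akt1, -0.069 to 0.14 for Prkaa2 and -0.087 to 0.12 for Mtor, and in responders against non-responders -0.018 to 0.085 for Akt2, -0.11 to 0.25 for Prkaa2 and -0.13 to 0.090 for Mtor. In OCA mice against vehicle they spanned -0.083 to 0.060 for Prkaa1, -0.012 to 0.20 for Prkaa2, -0.034 to 0.095 for Mtor and -0.072 to 0.057 for Rictor. The log2 Prkaa1 to Prkaa2 ratio spanned -0.25 to 0.017 in OCA mice, -0.69 to 0.035 in responders and -0.076 to 0.14 in non-responders against vehicle and -0.70 to 0.026 in responders against non-responders, and the log2 Akt1 to Akt2 ratio there spanned -0.082 to 0.21.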
